A study of Homo sapiens with 6 samples.

Results

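The mitochondrial ribosomal proteins measured here are the 76 genes that the platform annotation maps to a symbol of MRPL or MRPS followed by a number, out of 20046 genes with a symbol on the array. They comprise 48 genes of the large subunit (MRPL) and 28 of the small subunit (MRPS), represented by 110 of the 47322 probes. Expression was profiled in T47D cells, an established line of luminal breast cancer, positive for oestrogen receptor. One group of 3 samples had received a mimic of the microRNA miR-489, and the other 3 samples a scrambled control siRNA. RNA was taken 72 h after transfection in both groups, and each sample was hybridised to its own 1-colour Illumina BeadChip. No untransfected cells were included, so a response to transfection itself is shared by both groups. Separate cultures for the replicates are not stated in the labels. The p-values rest on the spread of these samples alone and that spread may be technical.

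Mitochondria carry their own ribosome, which translates the few respiratory chain subunits still encoded by mitochondrial DNA. Its ribosomal RNAs are transcribed inside the organelle, whereas all of its proteins are encoded in the nucleus, made in the cytosol and imported. The large subunit holds the peptidyl transferase centre and the exit tunnel, and the small subunit holds the messenger RNA channel and the decoding site. Compared with its bacterial ancestor, the particle has lost RNA and gained proteins that have no bacterial counterpart. A microRNA mimic is a short duplex that loads the silencing machinery and represses messenger RNAs that pair with its seed.

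The labels do not name the arm of the mimic. The RefSeq table (GRCh38.p14) holds 1 mature sequence of miR-489, shown here because its seed, bases 2 to 8 in capitals, is the part that would select targets if the mimic carries this arm. It lies on chromosome 7 (chr7:93483947-93483968, minus strand).
hsa-miR-489-3p: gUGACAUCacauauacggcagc

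Of all probes, 16452 to 17346 were detected per array (detection p below 0.01), among them 99 to 103 of the member probes. Over 17104 kept probes, Pearson's r was 0.982 to 0.993 between arrays within a group and 0.945 to 0.958 between a mimic and a scramble array. A probe was kept if it was detected on at least 3 of the 6 arrays. All 9 luminal markers examined were detected on every array, and 5 of them changed with the mimic (limma adjusted p below 0.05). ESR1 was at -1.16 ± 0.12, FOXA1 at -1.05 ± 0.12, KRT19 at -0.51 ± 0.11, KRT8 at 0.46 ± 0.15 and EPCAM at 0.50 ± 0.14 (log2 fold change ± SE). By contrast, the 4 endothelial markers and the 3 basal markers on the array were detected on none. Of the 6 fibroblast markers COL1A1 was detected on all arrays and the other 5 on none, and of 5 leukocyte markers CD14 and CD68 were detected on all. CD14 was at -1.34 ± 0.18 and CD68 at -0.59 ± 0.12, and the part of such markers in the results below was not tested. In such bulk samples fewer cells of a kind and less RNA per cell cannot be told apart.

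Mitochondrial ribosomal protein genes moved in both directions with the mimic, and most were not called. For each gene the kept probe of highest 6-array mean was used, and in all 76 genes that probe was detected on all 6 arrays. With the mimic, 15 genes rose, 9 fell and 52 were not called at an adjusted p below 0.05 (limma, Benjamini-Hochberg over all kept probes, n = 3 per group). Called genes made up 31.6% of the members, against 35.7% of the 10503 genes tested. By direction, 19.7% of members rose against 18.4% of all genes, and 11.8% fell against 17.3% of all genes. These shares lie near those of the whole array, and the list was given no test of its own. The median log2 fold change of the members was 0.11, against 0.03 over all genes, and the median size of change regardless of direction was 0.26, against 0.35. In all 24 called members the arrays of the 2 groups did not overlap, as in 19 of the 52 that were not called. Together these are 56.6% of the members, against 51.4% of all genes.

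**Figure D1:**
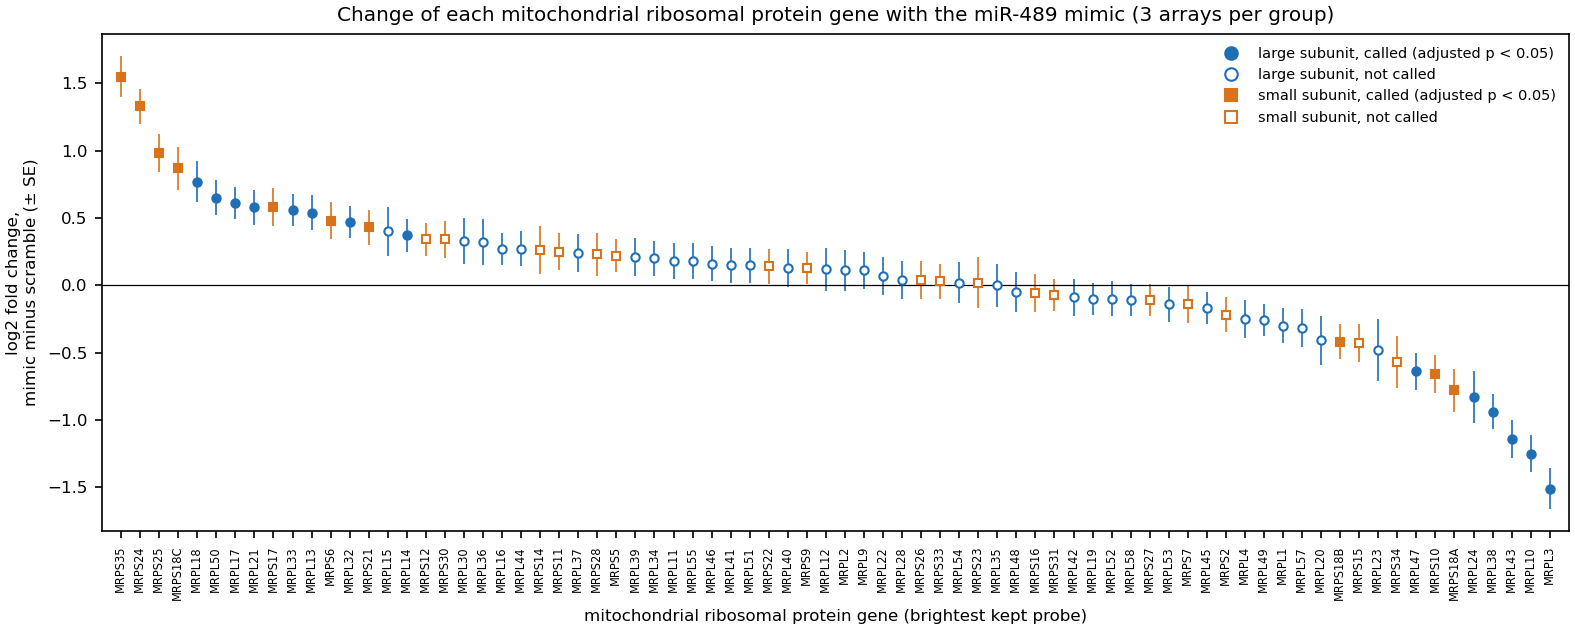
Log2 fold change (mimic minus scramble, vertical axis, ± SE, n = 3 arrays per group) of each of the 76 genes, in order of change. Circles are large subunit genes, squares small subunit genes, and filled symbols are called. MRPS35 leads the rises at 1.55 and MRPL3 the falls at -1.51, while 52 open symbols lie between -0.57 and 0.40.

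The largest rises were in the small subunit. MRPS35, a mitochondria-specific protein of the small subunit head, had normalized log2 intensities of 10.32, 10.42 and 10.26 on the mimic arrays, against 8.60, 8.75 and 9.01 on the scramble arrays. All mimic arrays lay more than 1 log2 unit above the highest scramble array, and the gene rose 2.92-fold (log2 fold change 1.55 ± 0.15, SE, limma adjusted p = 0.000357). MRPS24, the counterpart of a bacterial protein that lines the messenger RNA entry channel, had 12.54, 12.25 and 12.32 with the mimic and 11.07, 11 and 11.06 with scramble. The scramble arrays were nearly level, and the change was 1.33 ± 0.13 (adjusted p = 0.000409), or 2.52-fold. MRPS25, another protein found only in mitochondrial ribosomes, had 9.17, 9.15 and 9.08 with the mimic against 8.17, 8.36 and 7.93 with scramble. Here the mimic arrays were the tighter group, and the rise was 0.98 ± 0.14 (adjusted p = 0.00192). MRPS17, whose bacterial counterpart binds ribosomal RNA early in assembly, had 11.84, 11.77 and 12 with the mimic and 11.46, 11.17 and 11.24 with scramble. Its rise of 0.58 ± 0.14 was called at an adjusted p = 0.0138, and without mimic array 3 the adjusted p was 0.0538.

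The small subunit falls were smaller in size than its leading rises. MRPS10, the counterpart of a bacterial protein of the small subunit head, had 10.60, 10.71 and 10.63 with the mimic against 11.21, 11.55 and 11.15 with scramble. The groups were separated, and the gene fell by 0.66 on the log2 scale (SE 0.14, limma adjusted p = 0.0102). In all, 7 of 28 small subunit genes rose and 3 fell, with a median log2 fold change of 0.14. Their called share, 35.7%, equals that of all genes to 3 digits. The 18 small subunit genes without a call ran from -0.57 (MRPS34) to 0.34 (MRPS12, a protein of the decoding site). Those with a positive value were MRPS12, MRPS30, MRPS14, MRPS11, MRPS28, MRPS5, MRPS22, MRPS9, MRPS26, MRPS33 and MRPS23. Those with a negative value were MRPS16, MRPS31, MRPS27, MRPS7, MRPS2, MRPS15 and MRPS34. MRPS15 (-0.43, adjusted p = 0.0503), MRPS34 (-0.57, 0.0529) and MRPS12 (0.34, 0.0576) missed the threshold narrowly, and MRPS15 and MRPS34 were each called in 8 of 11 alternative analyses with all 6 arrays.

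MRPS18A, MRPS18B and MRPS18C are human paralogs of a single bacterial small subunit protein, and their probes moved apart. MRPS18C had 11.56, 11.57 and 11.64 with the mimic against 10.92, 10.40 and 10.85 with scramble, a rise of 0.87 ± 0.16 (adjusted p = 0.00522). MRPS18A had 8.01, 8.02 and 8.24 with the mimic against 8.91, 9.09 and 8.61 with scramble, a change of -0.78 ± 0.16 (adjusted p = 0.00755). MRPS18B had 11.94, 12.06 and 11.94 with the mimic against 12.25, 12.52 and 12.41 with scramble. It fell by 0.42 on the log2 scale (SE 0.13, adjusted p = 0.0378). The MRPS18B call was lost without mimic array 1 (adjusted p = 0.106) or 3 (0.110) and without scramble array 2 (0.112) or 3 (0.0986). With all 6 arrays it was lost under median scaling, without a filter on dim probes and as the mean over probes. A second, dimmer probe of MRPS18B was not called (-0.21 ± 0.18). In the known structure of the human particle MRPS18A and MRPS30 sit in the large subunit despite their names. Counted by place, 8 of 50 large subunit genes rose and 7 fell, and 7 of 26 small subunit genes rose and 2 fell.

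In the large subunit the leading changes were falls. MRPL3, the counterpart of a bacterial protein near the peptidyl transferase centre, had 10.83, 10.57 and 10.55 with the mimic against 12.30, 11.97 and 12.23 with scramble. The scramble level was 2.85 times that of the mimic (log2 fold change -1.51 ± 0.15, limma adjusted p = 0.000418). A dim second probe was at -0.49, with detection on 1 of 3 mimic arrays. It was kept through the scramble arrays, where it was higher, so it is no separate support. MRPL10 had 8.67, 8.43 and 8.51 with the mimic against 9.66, 9.94 and 9.76 with scramble, a change of -1.25 ± 0.14 (adjusted p = 0.000608). MRPL10 anchors the stalk that recruits translation factors. The stalk protein it holds, MRPL12, had 11.13, 10.66 and 11.04 with the mimic against 10.92, 10.73 and 10.83 with scramble, overlapping groups without a call (0.12 ± 0.16, adjusted p = 0.598). MRPL38, a mitochondria-specific protein of the central protuberance, had 10.23, 10.02 and 10.30 with the mimic against 11.04, 11.16 and 11.17 with scramble, a change of -0.94 ± 0.13 (adjusted p = 0.00158). Of other proteins of that region, MRPL40 (0.13), MRPL46 (0.16) and MRPL48 (-0.05) were not called. MRPL18, also placed there by its bacterial counterpart, was called in the other direction (0.77 ± 0.15, limma adjusted p = 0.00577).

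The proteins around the peptide exit that are named here, a selection, gave a mixed picture. MRPL24 had 11.34, 10.79 and 11.27 with the mimic against 12.23, 11.75 and 11.93 with scramble, and fell by 0.83 on the log2 scale (SE 0.19, limma adjusted p = 0.0129). Array 2 was the lowest of its group on both sides, and a second probe of MRPL24 fell by 0.92. MRPL47 had 9.57, 9.28 and 9.64 with the mimic against 10.15, 10.18 and 10.10 with scramble, a change of -0.64 ± 0.14 (adjusted p = 0.00920). A second, dimmer MRPL47 probe, detected on every array, was not called (-0.50 ± 0.17, adjusted p = 0.0529), though its groups did not overlap. MRPL22 (0.07), MRPL23 (-0.48 ± 0.23, adjusted p = 0.133) and MRPL45, which anchors the ribosome to the inner membrane (-0.17), were not called.

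The rises of the large subunit were smaller than its leading falls. MRPL18, whose bacterial counterpart binds RNA in the central protuberance, had 11.85, 11.50 and 11.58 with the mimic against 10.82, 10.75 and 11.04 with scramble, a rise of 0.77 ± 0.15 (limma adjusted p = 0.00577). A second MRPL18 probe rose by 0.89. MRPL50, a mitochondria-specific protein, had 10.48, 10.20 and 10.29 with the mimic against 9.79, 9.69 and 9.55 with scramble, and rose by 0.65 (SE 0.13). MRPL17 had 10.56, 10.61 and 10.76 with the mimic against 10.07, 9.98 and 10.06 with scramble, and rose by 0.61 (SE 0.12). Both are 1.5-fold rises or slightly more, with no overlap between groups. MRPL21 had 12.12, 11.92 and 11.95 with the mimic against 11.54, 11.28 and 11.42 with scramble, a rise of 0.58 (SE 0.13), and its second probe rose by 0.71. MRPL33 had 11.94, 12.03 and 11.99 with the mimic against 11.39, 11.49 and 11.38 with scramble, a rise of 0.56 (SE 0.12), and its second probe rose by 0.97. MRPL17, MRPL21 and MRPL33 all have bacterial counterparts.

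**Figure D2:**
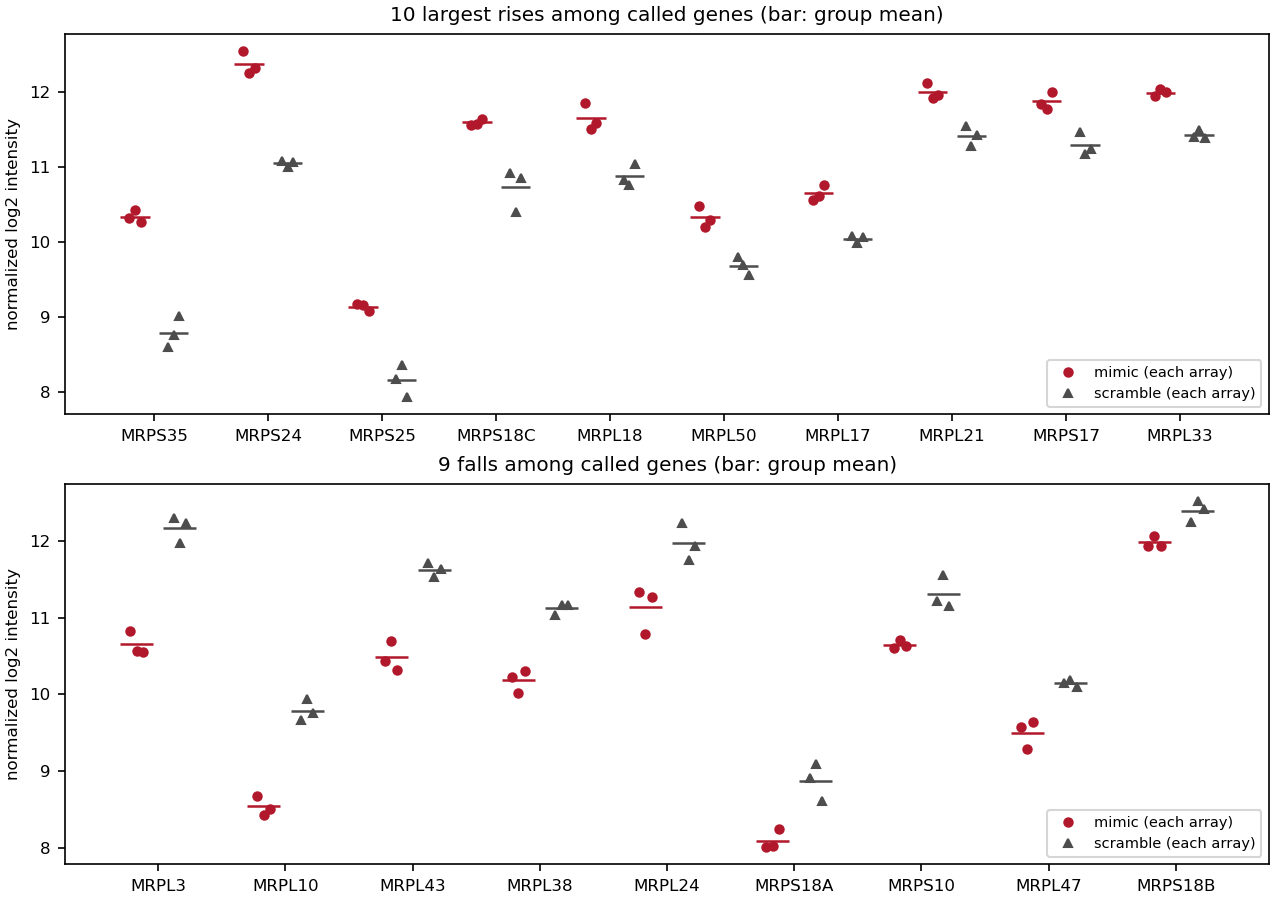
Normalized log2 intensity (vertical axis) on each of the 3 mimic arrays (circles) and 3 scramble arrays (triangles) for the 10 largest rises (top) and all 9 falls (bottom) among called genes, with bars at group means. The 2 groups do not overlap in any gene shown. Levels of different genes come from different probes and are not comparable.

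The remaining rises were small. MRPL13 (0.54), MRPS6 (0.48), MRPL32 (0.47), MRPS21 (0.43) and MRPL14 (0.37) were called at adjusted p-values from 0.0158 to 0.0463 in limma, and each lost its call without some arrays. For MRPL13 these were mimic array 1 (adjusted p = 0.0609) and scramble array 2 (0.0544). For MRPL32 they were mimic arrays 1 (0.0584) and 3 (0.0532) and scramble arrays 2 (0.0535) and 3 (0.0543). For MRPS6 they were the same 4 arrays, with adjusted p-values of 0.0947, 0.0932, 0.0905 and 0.0565. MRPS21 kept its call only without mimic array 3 among these analyses, with adjusted p-values of 0.0622 to 0.0939 in the other 5. A second MRPS21 probe, also detected on all 6 arrays, was at 0.01 ± 0.16 with overlapping groups (adjusted p = 0.981), and the mean over both probes was not called (0.22, adjusted p = 0.240). MRPL14 was not called without any 1 of the 6 arrays (0.0818 to 0.126). With all 6 arrays, MRPL14, MRPS6 and MRPS21 lost their calls without a filter on dim probes. MRPL14 also lost its call with cyclic loess, with a detection p below 0.05 as the filter and with the replicate block. In total 8 of 48 large subunit genes rose and 6 fell, with a median log2 fold change of 0.11. Thus 29.2% were called, against 35.7% of all genes. The count that rose was 5 without mimic array 1 or without scramble array 2.

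The 34 large subunit genes without a call ran from -0.48 (MRPL23) to 0.40 (MRPL15). Beyond those named above, they were MRPL30, MRPL36, MRPL16, MRPL44, MRPL37, MRPL39, MRPL34, MRPL11, MRPL55, MRPL41, MRPL51, MRPL2, MRPL9, MRPL28, MRPL54 and MRPL35 with values of 0.00 or above. MRPL42, MRPL19, MRPL52, MRPL58, MRPL53, MRPL4, MRPL49, MRPL1, MRPL57 and MRPL20 had negative values. MRPL58, a hydrolase that frees stalled peptides, was at -0.11 ± 0.12, and MRPL44, an RNase-like protein of the particle, at 0.27 ± 0.13. Many mitochondrial ribosomal protein genes have processed pseudogenes, and hybridisation of their transcripts to these probes was not tested.

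Set side by side, the subunits had near medians (0.14 for the small and 0.11 for the large). In the values above, the 4 largest rises (MRPS35, MRPS24, MRPS25 and MRPS18C) were small subunit genes, and the 5 largest falls (MRPL3, MRPL10, MRPL43, MRPL38 and MRPL24) were large subunit genes. This order depended on the processing. In the authors' processed values MRPS24 led (1.29), before MRPS35 (1.23), MRPS18C (0.82) and the large subunit gene MRPL18 (0.73), with MRPS25 at 0.65, and MRPL18 was also among the 4 largest rises without scramble array 2. MRPS18A was among the 5 largest falls without mimic array 2, without scramble array 1 or 3, and with the mean over a gene's probes. The share that rose was 25% in the small and 16.7% in the large subunit, against 18.4% of all genes. The share that fell was 10.7% in the small (3 of 28) and 12.5% in the large (6 of 48), against 17.3% of all genes. The order of the subunits in the share that fell turned in several alternatives. Of these, 7 called 5 of 28 small subunit genes lower, against 6 to 8 of 48 large subunit genes. It also turned with the mean over a gene's probes (4 of 28 against 6 of 48). Leaving out 1 array gave up to 4 of 28, against 6 of 48 in every case. No test was run on these shares. Per array, the median of the members' log2 values, each gene centred on its mean over the 6 arrays, was 0.036, -0.041 and 0.103 in large subunit genes on the mimic arrays, against 0.034, -0.074 and -0.052 on the scramble arrays. In small subunit genes it was 0.093, 0.001 and 0.082 on the mimic arrays, against -0.018, -0.077 and -0.093 on the scramble arrays. Over all genes tested it was 0.011, 0.008 and 0.024 on the mimic arrays, against -0.010, 0.007 and -0.017 on the scramble arrays. The groups overlapped in the large subunit, and did not overlap in the small subunit or over all genes.

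Members were also split by whether the protein has a bacterial counterpart, assigned by gene symbol. Of 46 with a counterpart, 12 rose and 7 fell (41.3% called), and of 30 that are mitochondria-specific, 3 rose and 2 fell (16.7% called), against 35.7% over all genes. The share with a counterpart lies near that of all genes, and the mitochondria-specific share lies below it. The median size of change was 0.36 with a counterpart and 0.16 without, against 0.35 over all genes. The median SE of the fit was 0.14 with a counterpart and 0.13 without. The mitochondria-specific calls were MRPS35, MRPS25 and MRPL50, which rose, and MRPL43 and MRPL38, which fell. No test of the difference between these classes was run, and the split was not examined under the alternatives. MRPS15, with a counterpart, and MRPS34, without, were not called here but were each called in 8 of 11 alternatives with all 6 arrays.

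**Figure D3:**
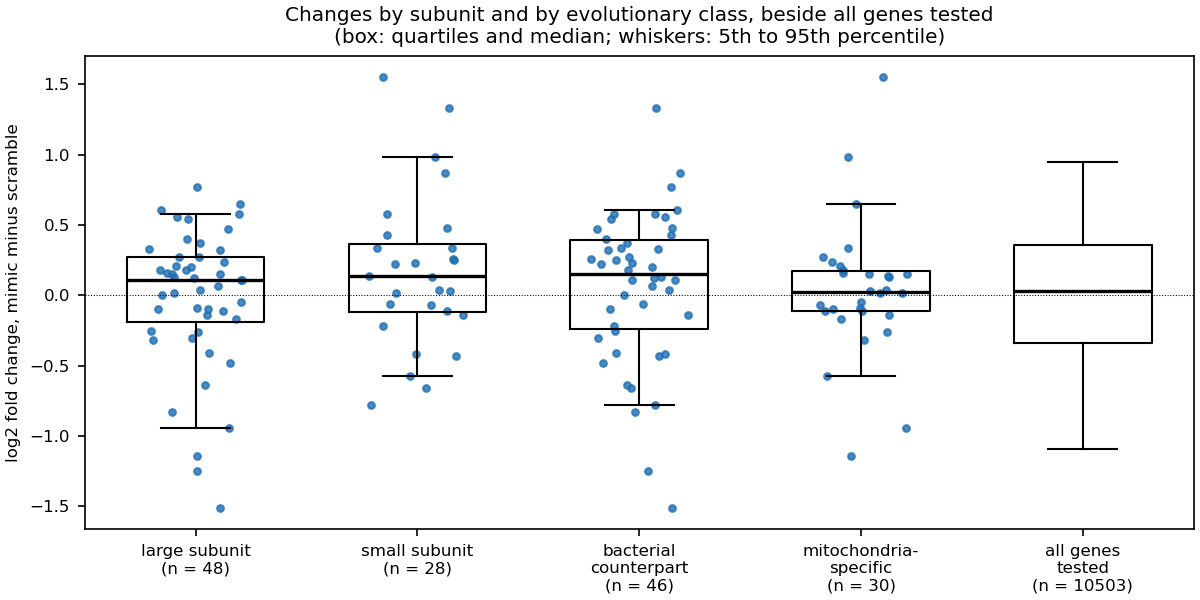
Log2 fold change (mimic minus scramble, vertical axis) of each gene (points) by subunit and by whether the protein has a bacterial counterpart, beside all 10503 genes tested. Boxes give quartiles and medians. The box of the mitochondria-specific genes is the narrowest, with a median of 0.02.

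Probes of a gene mostly moved together. Of 22 members with more than 1 kept probe, 15 had all probes on one side of 0. MRPL11, a protein at the base of the stalk, was the only member with called probes in both directions. Its dim probe ILMN_1676458 had 5.36, 5.07 and 5.86 on the mimic arrays, with detection on 1 of 3, against 7.54, 6.78 and 7.22 on the scramble arrays, detected on all. That probe fell by 1.75 on the log2 scale (SE 0.25, limma adjusted p = 0.00178), and by 0.49 in the authors' processed values. With detection on so few mimic arrays, its size depends on the background step, and it was kept through the scramble arrays, where it was higher. Probe ILMN_1690371 had 10.63, 10.85 and 11 with the mimic against 10.25, 9.99 and 10.39 with scramble, and rose by 0.61 (SE 0.16, adjusted p = 0.0194, or 0.0730 without mimic array 3 and 0.0617 without scramble array 2). The brightest probe, ILMN_2316540, was not called (0.18 ± 0.13). The annotation assigns the 3 probes to different RefSeq transcripts of MRPL11. In the authors' processed values ILMN_1690371 was at 0.55, so these probes lay on opposite sides of 0 there too.

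MRPL43, a mitochondria-specific protein of the large subunit, showed a split of another kind. Its brightest probe, ILMN_2258774, had 10.43, 10.69 and 10.32 with the mimic against 11.71, 11.53 and 11.64 with scramble, a change of -1.14 ± 0.14 (limma adjusted p = 0.000979). A second probe annotated to the same transcript, ILMN_1700477, changed by -1.13 ± 0.13. The third, ILMN_1652147, annotated to another transcript, had 7.23, 7.54 and 7.37 with the mimic against 7.09, 7.21 and 7.22 with scramble. It was separated in the other direction by a narrow margin and was not called (0.20 ± 0.13, adjusted p = 0.272). The change of ILMN_1652147 minus that of ILMN_2258774 was 1.35 (exact permutation p = 0.100, two-sided, the smallest that 3 against 3 arrays allow, and 0.273 after adjustment over 30 probe pairs). Among the 30 pairs of probes, 5 differed in change by at least 0.5, all in MRPL11, MRPL43 and MRPL3. MRPL20 and MRPS11 had a dimmer probe that was called (-0.50 and 0.44) beside a brightest probe that was not (-0.41 and 0.25).

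**Figure D4:**
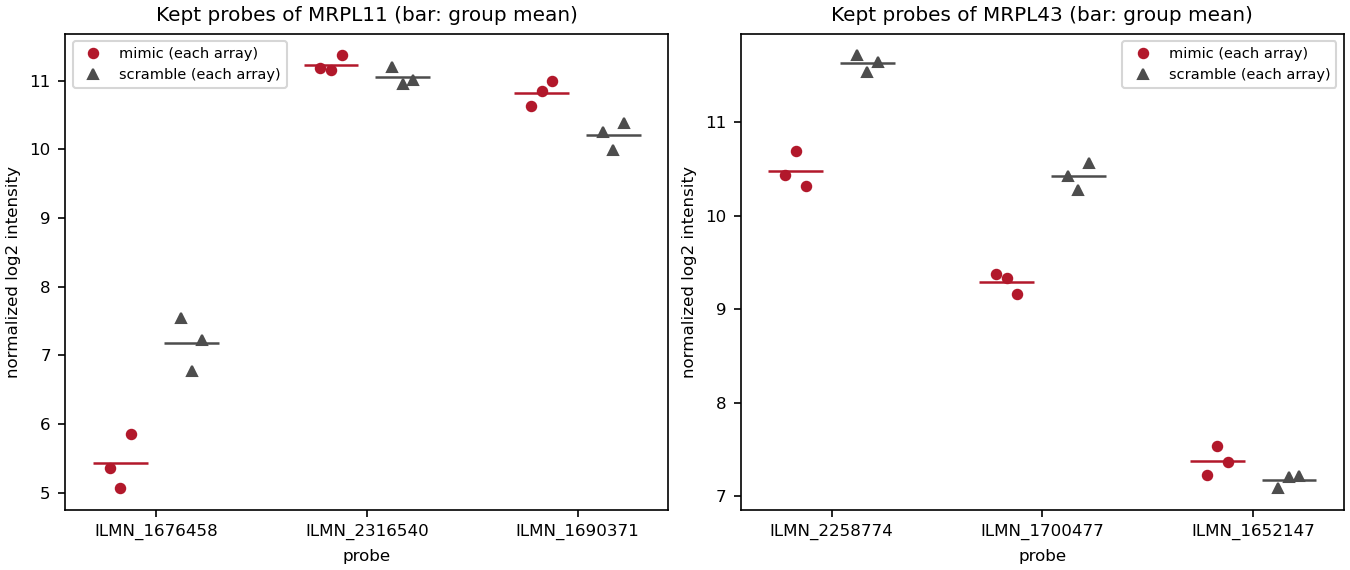
Normalized log2 intensity on each mimic array (circles) and scramble array (triangles) for the kept probes of MRPL11 (left) and MRPL43 (right), with bars at group means. In MRPL11 the dim probe at the left lies lower with the mimic while the probe at the right lies higher. In MRPL43 the 2 bright probes fell and the third did not.

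Promoters of the members were compared by letters, since genes of this family are known to be driven by ETS-type factors, YY1 and NRF1. RefSeq promoters (GRCh38.p14, 250 bases before to 50 after the start) were found for 68 of the 76 genes. The ETS letters CCGGAAG, on either strand, were in 28 of 68 (41.2%), against 20% of the promoters of the genes tested and 10.7% of all promoters in the table. The YY1 letters AAGATGGC were in 20 of 68 (29.4%), against 5.77% and 3.03%. The NRF1 core GCATGCGC was in 6 of 68 (8.82%), against 5.94% and 3.27%, and the full palindromic NRF1 motif, which contains that core, in 1 (MRPL17). The subunits had like shares, with the ETS letters in 44.4% of small and 39% of large subunit promoters. Among the called genes, the ETS letters were in 6 of 8 promoters of genes that fell, 3 of 13 of genes that rose and 19 of 47 of genes not called. The YY1 letters were in 5 of 8, 3 of 13 and 12 of 47 of the same groups. These groups are small, and the differences between them were not tested. The same split by direction was not made over all genes tested, so no share of the whole array stands beside these counts. A match describes letters in a window, and occupancy was not measured here.

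The last 60 bases before the start are shown for the 2 largest rises, MRPS35 and MRPS24, and for every called gene that holds the ETS letters there, given in capitals (CTTCCGG on the other strand). These are MRPL33 and MRPS21, which rose, and MRPL3, MRPL43, MRPS18A, MRPS10 and MRPL47, which fell. MRPS35 and MRPS24 hold none of the motifs in this stretch, but MRPS24 holds the YY1 letters at position 20 after the start. Among the other genes that fell, MRPL24 holds none of the motifs in its whole window, MRPL38 and MRPS18B hold no ETS letters in this stretch, and MRPL10 was not matched. MRPS35 lies at chr12:27710772-27710831 (plus strand), MRPL33 at chr2:27771659-27771718 (plus strand) and MRPS21 at chr1:150293801-150293860 (plus strand). MRPS24 lies at chr7:43869518-43869577, MRPL3 at chr3:131502972-131503031, MRPL43 at chr10:100987498-100987557, MRPS18A at chr6:43687792-43687851, MRPS10 at chr6:42217862-42217921 and MRPL47 at chr3:179604639-179604698 (all on the minus strand, GRCh38.p14).
MRPS35: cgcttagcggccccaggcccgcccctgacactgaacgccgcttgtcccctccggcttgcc
MRPS24: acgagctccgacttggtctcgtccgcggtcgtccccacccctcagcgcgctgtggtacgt
MRPL33: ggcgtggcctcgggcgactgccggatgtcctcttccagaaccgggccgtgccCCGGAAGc
MRPS21: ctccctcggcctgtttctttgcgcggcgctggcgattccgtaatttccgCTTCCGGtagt
MRPL3: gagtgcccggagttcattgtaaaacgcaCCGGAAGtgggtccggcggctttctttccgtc
MRPL43: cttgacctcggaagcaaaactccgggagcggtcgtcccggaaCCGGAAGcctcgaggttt
MRPS18A: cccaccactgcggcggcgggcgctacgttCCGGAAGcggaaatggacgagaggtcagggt
MRPS10: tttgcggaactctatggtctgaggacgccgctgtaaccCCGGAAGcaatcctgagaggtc
MRPL47: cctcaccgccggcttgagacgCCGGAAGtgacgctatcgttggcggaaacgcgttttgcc

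Genes that act with the mitochondrial ribosome also moved both ways, as did all genes tested, of which 18.4% rose and 17.3% fell. Of 9 measured regulators of mitochondrial biogenesis, 3 rose and 1 fell. GABPB1, which encodes the partner subunit of the ETS factor GABPA, had 7.81, 7.41 and 7.65 with the mimic against 9.61, 9.21 and 9.23 with scramble, and changed by -1.72 ± 0.17 (limma adjusted p = 0.000399). GABPA itself was not called (0.33 ± 0.19, adjusted p = 0.216). YY1 rose by 0.45 (SE 0.13, adjusted p = 0.0276), a call that was not examined under the alternatives. The coactivator gene PPARGC1A rose by 1.05 (SE 0.21) and MYC by 0.49 (SE 0.12). MYC lost its call without mimic array 3 (adjusted p = 0.0599) and without scramble array 2 (0.0586) or 3 (0.0612). Among 14 translation factors 3 rose and 1 fell. MTRFR, a release factor for stalled ribosomes, rose by 1.18 (SE 0.16), MTFMT, which formylates the initiator transfer RNA, rose by 0.98 (SE 0.13), and TACO1, an activator of COX1 translation, changed by -0.85 ± 0.12. In the authors' processed values some of these changes were over 1.5 times smaller, at -1.10 for GABPB1, 0.61 for PPARGC1A, 0.69 for MTRFR and 0.62 for MTFMT, each still called.

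Of 19 mitochondrial aminoacyl-tRNA synthetases and amidotransferase subunits, 2 rose and 1 fell. NARS2 changed by 1.13 ± 0.19, MARS2 by 0.71 ± 0.17 (not called without mimic array 3, limma adjusted p = 0.0548) and AARS2 by -0.72 ± 0.13. In the authors' processed values they were smaller, at 0.64 for NARS2, 0.39 for MARS2 and -0.27 for AARS2, each still called. Of 20 genes listed as assembly factors 3 rose and 2 fell. The largest change there was that of TMEM70 (-1.13 ± 0.13), which is known as an assembly factor of ATP synthase and not of the ribosome. Its change was -0.42 in the authors' processed values and -0.57 as the mean over its probes, both called. MTERF3, which binds mitochondrial ribosomal RNA, rose by 0.57 (SE 0.12). The rRNA methyltransferase gene MRM1 was at -0.74 ± 0.22 with detection on 1 of 3 mimic arrays (adjusted p = 0.0322). It was called neither in the authors' processed values (0.139), without background correction (0.0852) or without a filter (0.0775), nor without mimic array 1 (0.0721) or 2 (0.0515) or scramble array 1 (0.0754), 2 (0.0517) or 3 (0.0921).

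Of 21 genes of mitochondrial transcription and RNA processing, 4 rose and 3 fell. TFAM, which packages mitochondrial DNA and starts its transcription, rose by 0.72 (SE 0.14, limma adjusted p = 0.00556). The polymerase gene POLG (-0.78 ± 0.21, adjusted p = 0.0222) lost its call without mimic array 2 (0.0539) or 3 (0.0661) and without scramble array 1 (0.0616) or 3 (0.0752). POLG was also not called with median scaling (0.0501) or without a filter (0.0533). TRMT10C, a subunit of mitochondrial RNase P (0.64 ± 0.19, adjusted p = 0.0326), lost its call without mimic array 1 (0.108) or 3 (0.0717) and without scramble array 2 (0.0851) or 3 (0.0663). Without a filter TRMT10C was not called either (0.0736). Among ribosomal proteins with other symbols 3 were measured, and DAP3, a GTP-binding protein of the small subunit, rose by 0.56 (SE 0.13), while CHCHD1 (0.21) and GADD45GIP1 (-0.41) were not called.

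Of 72 cytosolic ribosomal protein genes 6 rose and 5 fell (15.3%, against 35.7% of all genes). Their median log2 fold change was -0.01 and their median size of change 0.15. The largest changes were those of RPS27L (0.79 ± 0.11) and RPL17 (-0.70 ± 0.13), and that of RPL36A (0.75 ± 0.23) was not called without mimic array 1 (limma adjusted p = 0.116), 2 (0.0530) or 3 (0.0896) or without scramble array 2 (0.118) or 3 (0.123), nor without a filter on dim probes (0.0965). Many of these genes have near-identical pseudogenes, so their values are uncertain. The difference in called share between these lists was not tested.

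**Figure D5:**
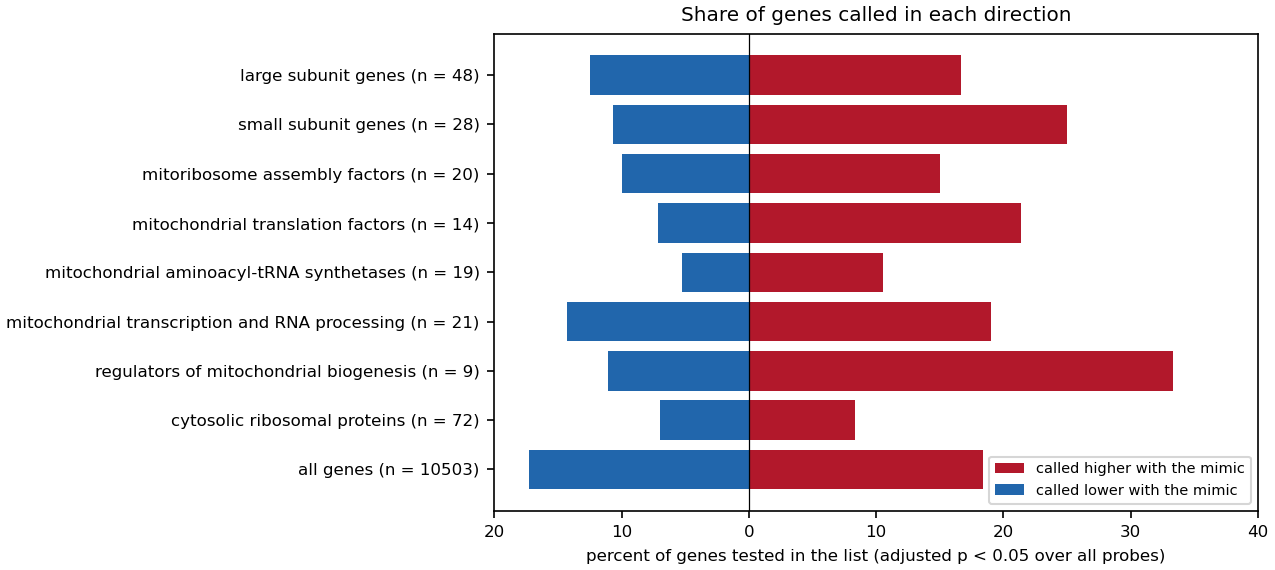
Percent of the genes tested in each list (horizontal axis) that were called higher (right) and lower (left) with the mimic. The small subunit has 25% higher and 10.7% lower, the large subunit 16.7% higher and 12.5% lower, and all genes 18.4% higher and 17.3% lower. Lists of 9 to 21 genes give coarse shares.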

How the data were processed

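Per the file headers, the deposited table that is not normalized holds a linear summary intensity and a detection p-value for each probe and array. The authors also deposited processed intensity values, and per the submitters' processing notes lumi 3.2.2 was used, with settings that the sources do not state. Background was removed from the deposited intensities by normexp, estimated from the detection p-values, with an offset of 16 (nec, limma 3.58.1, R 4.3.3). Arrays were quantile-normalized and log2 was taken. Mimic was tested against scramble with lmFit and eBayes (two-sided), and p-values were adjusted by Benjamini-Hochberg over 17104 kept probes. The fit was checked on simulated data. The number of arrays limits the precision. Intensities were compared between replicates and never identical, so no replicate was a copy of another. All 6 arrays counted as samples, although this check cannot tell separate cultures from repeat hybridisations.

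Symbols come from the platform annotation and were updated by Entrez identifier in RefSeq, where 30074 of 30113 named probes matched. Left out were 5 probes of pseudogenes and antisense RNAs. Every member could be named, with values per array for the 10 largest rises and falls among called genes and for members whose called probes disagree. From each other list the 3 called genes of largest change were named, CHCHD1, GADD45GIP1, GABPA and YY1 being added after their values were seen. The members and lists were chosen with earlier results of these data known. Alternatives changed the background (none, or an offset of 50), the normalization (cyclic loess, median scaling, or the authors' processed values), the detection filter (3 others), the model (a replicate block, or trend and robust in eBayes) and the summary per gene (mean over probes). Further ones were subunits by place in the structure and leaving out each array in turn.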

Additional observations from a re-analysis of the deposited data

How the results depend on the processing

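Of the 24 called genes, 17 kept their call and direction under all 17 alternatives (9 that rose and 8 that fell), 7 lost the call under at least 1, and none of the 24 reversed. Of the 52 genes not called, 8 gained a call under at least 1 alternative with all 6 arrays, and 16 changed sign under at least 1. Leaving out each array in turn gave 10 to 14 members that rose and 8 to 10 that fell. By subunit it gave 5 to 8 large subunit genes that rose, 6 that fell in every case, 5 to 6 small subunit genes that rose and 2 to 4 that fell, with medians of 0.07 to 0.15 (large) and 0.09 to 0.16 (small). With fewer arrays the share of all genes called also fell, to 23.9% without mimic array 3. The small subunit genes that fell numbered 5, against 3, without background correction, with an offset of 50, with cyclic loess, in the authors' processed values, with detection on all 6 arrays, with the replicate block and with trend and robust. Median scaling moved the median of all genes to 0.11 and those of the large and small subunit to 0.21 and 0.23. Same-numbered arrays correlated in their deviations at r = 0.36, 0.45 and -0.11 for numbers 1 to 3. Mimic and scramble arrays of different numbers correlated at -0.49 to 0.35. Whether same-numbered arrays were handled together was not tested. With the replicate block 15 members rose and 11 fell, and MRPL14 lost its call (adjusted p = 0.0557). Some changes were smaller in size in the authors' processed values, as for MRPS35 (1.23), MRPS25 (0.65) and MRPS18A (-0.50). As the mean over probes MRPL3 was at -1.0 and MRPL43 at -0.69, both still called.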
